A study of Mus musculus with 40 samples.

Results

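Chemokine ligands and receptors were described in aortas and kidneys of mice with or without endothelial EGFR. The members were the protein-coding genes whose symbol starts with Ccl or Cxcl and a number, or is Ccr or Cxcr and a number, and which had at least 1 count in the organ. Of 21856 protein-coding genes, 51 carried such a symbol. Counts were found for 41 of them in either organ, for 40 in aortas, for 40 in kidneys and for 39 in both. Ccl26 was seen only in aortas and Cxcr1 only in kidneys. The other 10 were receptors on chromosomes 9 and X, and the tables list 0 for each of the 5461 genes of these chromosomes in aortas and each of the 5466 in kidneys. These receptors were therefore not measurable here, and the receptor side was left with Ccr6, Ccr7, Ccr10, Cxcr1, Cxcr2 and Cxcr4.

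Chemokines are small secreted proteins that direct the movement of cells by binding to G protein-coupled receptors. Inflammatory chemokines are made on demand by activated macrophages, endothelium, stroma and epithelium and draw in monocytes, neutrophils, eosinophils or T cells. Homeostatic chemokines such as Cxcl12 are made steadily and place cells in marrow, lymphoid organs and epithelia. In vessel wall and kidney the monocyte chemokine Ccl2 and the neutrophil chemokine Cxcl1 are well known as early products of injury.

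The study asked how deletion of EGFR in endothelial cells and a high fat diet (HFD) alter vessels and kidneys. EC-EGFR-KO mice carried floxed Egfr alleles (exon 1 excised) with Tek-cre, whose Tie2 promoter is active in endothelium and also in haematopoietic cells, and which cannot be induced at will. EC-EGFR-WT mice carried the same Cre without floxed alleles, so that every animal was a Tek-cre carrier on a C57BL/6 background. From an age of 6 weeks the mice received a standard fat diet (SFD, 10% of energy from fat, SD in the labels) or HFD (60%) for 18 weeks. The labels add that, at about 5 weeks of age, mice were given HFD and standard chow mixed in equal parts before the change to HFD. The sex of the mice and the hour of collection were not given. Each organ had 5 libraries in each of 4 groups, 40 in all. Aorta libraries are named R-1 to R-5 (WT SFD), R-6 to R-10 (WT HFD), R-11 to R-15 (KO SFD) and R-16 to R-20 (KO HFD). Kidney libraries are named a1 to a5 (KO HFD), a6 to a10 (KO SFD), a11 to a15 (WT HFD) and a16 to a20 (WT SFD).

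Total counts were 17520161 to 36452741 in aortas (median 19683938) and 19643033 to 48833447 in kidneys (median 24182781). Levels are given in FPM, counts scaled to a common TMM-normalised library size in the way of CPM, and SD is over libraries. The smooth muscle markers summed to 24976–40397 FPM in aortas and 78.7–130 FPM in kidneys, and the tubule markers to 10276–12228 FPM in kidneys and 0.700–2.34 FPM in aortas, as the organ labels say. Cdh5 and Esam of the endothelial list, Cnn1 and Tagln of the smooth muscle list and the T cell genes Cd3d, Cd3e and Cd3g were listed at 0 throughout. Egfr itself was not lower in KO than in WT aortas, with 39.6 ± 8.93 (WT SFD), 40.5 ± 6.36 (WT HFD), 44.0 ± 5.70 (KO SFD) and 44.5 ± 6.58 FPM (KO HFD; SD, n = 5), and in kidneys it averaged 56.3, 40.5, 53.1 and 42.3 FPM in the same order, so the deletion could not be seen in whole tissue. Aortas R-1 (WT SFD) and R-12 (KO SFD) differed by less than sampling noise, with a median chi-square over genes of 0.0279 where sampling alone gives 0.455 and the next closest of 190 pairs had 1.5. The same held for kidneys a1 (KO HFD) and a12 (WT HFD), with 0.0282, although each pair spans different groups. Kidneys a8, a9 (both KO SFD) and a17 (WT SFD) stood apart by their immediate-early genes, whose summed level was 2530, 2265 and 2192 FPM against 124–245 FPM in the other kidneys. Aorta R-19 (KO HFD) had 16886 FPM of immediate-early genes against 586–7183 FPM in the others, and R-16 (KO HFD) had 2532 FPM of macrophage genes against 322–772 FPM.

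Homeostatic CXC ligands took most chemokine counts in both organs, in FPM without correction for gene length. Their members summed to 284 FPM in aortas and 187 FPM in kidneys. Cxcl12, which holds CXCR4-bearing cells in their niches, took the most counts of any member in each, with 60.3% of the summed level of all members in aortas and 33.8% in kidneys. It ranged from 177 to 346 FPM in aortas (median 270) and its kidney median was 104 FPM. Homeostatic and epithelial CC ligands followed in kidneys with 83.8 FPM, of which the mucosal chemokine Ccl28 held 57.3 FPM. In aortas the inflammatory CC ligands came next with 62.1 FPM over 9 members, of which the myeloid chemokines Ccl6 and Ccl9 held 23.6 and 16.8 FPM. The same 9 genes reached 14.7 FPM in kidneys. Neutrophil-attracting CXC ligands summed to 9.21 FPM in aortas and 6.92 FPM in kidneys. Interferon-induced CXC ligands summed to 0.870 and 11.5 FPM, and eosinophil and allergic CC ligands to 26.4 and 0.952 FPM, in that order of organs. Of the 40 members in each organ, 12 in aortas and 15 in kidneys were too low for the tests, among them the receptors Ccr6 and Cxcr2, whose mean was 0.0694 and 0.159 FPM in aortas and 0.0985 and 0.160 FPM in kidneys. Cxcr1 had 2 counts in 1 kidney, Ccl20 had 1 count in aortas and 17 in kidneys, and Ccl1 had 2 and 9. The receptors summed to few counts in both organs, with 1.65 and 1.12 FPM for the CC and 1.26 and 3.89 FPM for the CXC receptors.

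Between genes, levels compare only per length of exon. Per kilobase, the leading aortic members were Cxcl12 (32.3 FPM per kb), the eosinophil chemokine Ccl11 (18.1), the skin-type chemokines Ccl27b (15.1) and Ccl27a (13), and Ccl6 (13.1). Per kilobase in kidneys, Cxcl16, a membrane-bound ligand and scavenger receptor, led with 17.9 FPM per kb. It was followed by the epithelial chemokine Cxcl14 (15.2), Cxcl12 (12.8) and Ccl28 (11.8). Fewer cells of a type and less RNA per cell cannot be told apart in these bulk libraries, for any of the comparisons described here.

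The widest differences lay between the organs. Of 29 members tested over all 40 libraries, 25 (86.2%) had an adjusted p under 0.05 (edgeR quasi-likelihood test, Benjamini-Hochberg), 15 higher in aortas and 10 higher in kidneys, against 86.5% of all 17514 genes tested. The libraries of the organs did not overlap for 9 members, against 42.7% of all genes tested. These 9 were Ccl11, Ccl24, Ccl7, Ccl6, Cxcl16, Ccl25, Cxcl10, Cxcl14 and Ccl28. Both shares were close to, or under, those of all genes. Ccl11, Ccl24, Cxcl13 and Cxcl2 were too low for the tests within kidneys, and Ccl22 within aortas. They passed the filter on low counts here through the organ where they were higher, so their calls are not independent of it. The organs were counted in separate tables, and organ and any difference in their handling cannot be told apart. The FPM beside these organ values come from a joint normalisation of all 40 libraries and differ slightly from those within an organ.

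Among the members higher in aortas, the eosinophil ligands Ccl11 and Ccl24 and the monocyte ligand Ccl7 differed most. Ccl11 ran from 12.6 to 25.7 FPM in aortas (median 16.9) and from 0.0476 to 1.01 FPM in kidneys (median 0.186). Its log2 difference, aorta minus kidney, was 6.17 (SE 0.18, adjusted p 9.9e-28 in the edgeR quasi-likelihood test with Benjamini-Hochberg adjustment). Ccl24, which shares the receptor CCR3 with Ccl11, averaged 6.13 FPM in aortas and 0.124 FPM in kidneys, a log2 difference of 5.57 (SE 0.27). The monocyte chemokine Ccl7 averaged 5.02 and 0.323 FPM (3.84, SE 0.34). Ccl8, Ccl12 and Ccl9 were also higher in aortas, by 2.82, 2.77 and 2.58 on the log2 scale, although single libraries of the organs overlapped. Cxcl12 was 2.20-fold higher in aortas, with 246 against 112 FPM. Also higher in aortas were Cxcl13 (2.1), the lymph node chemokine Ccl19 (1.96), Ccl27b (1.95), Cxcl2 (1.45), Ccl27a (1.11) and the receptor Ccr10 (0.91).

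Among the members higher in kidneys, the epithelial ligands Ccl28 and Cxcl14 and the interferon-induced Cxcl10 differed most, while Ccl25 and Ccl28 were the only ones called for the kidney among the 6 homeostatic and epithelial CC ligands tested. Ccl28, which draws CCR10-bearing plasma cells and T cells to epithelia, ran from 22.3 to 121 FPM in kidneys (median 57.8) and from 0.0498 to 1.29 FPM in aortas (median 0.612). It was 98.8-fold higher in kidneys (log2 difference, aorta minus kidney, −6.63, SE 0.23, adjusted p 2.16e-25 in the same test by edgeR). Cxcl14 was 76.3-fold higher, with no kidney under 11.6 FPM and no aorta above 0.834 FPM. The T cell chemokine Cxcl10 averaged 9.08 FPM in kidneys and 0.392 FPM in aortas (−4.61, SE 0.37), and its relative Cxcl9 differed by −3.03. Ccl22, which draws CCR4-bearing T cells and stands in the same role group as Ccl11 and Ccl24, was higher in kidneys, with 0.387 against 0.0815 FPM (−2.24, SE 0.40, adjusted p 4.42e-06 by edgeR). The thymic and gut chemokine Ccl25 differed by −1.82, and Cxcl16 by −1.78 with 57.9 FPM in kidneys and 16.5 FPM in aortas. The receptor Cxcr4 had 4.0 FPM in kidneys and 1.02 FPM in aortas (−1.96), so ligand and receptor of the Cxcl12 pair were higher in different organs. Not all inflammatory CC ligands were higher in aortas, as Ccl4 (−1.25, SE 0.47, adjusted p 0.013) and Ccl5 (−1.13, SE 0.41, adjusted p 0.0106) were higher in kidneys by edgeR. Cxcl1 (adjusted p 0.319), Ccl3, Ccl21a and Ccr7 did not pass.

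**Figure D1:**
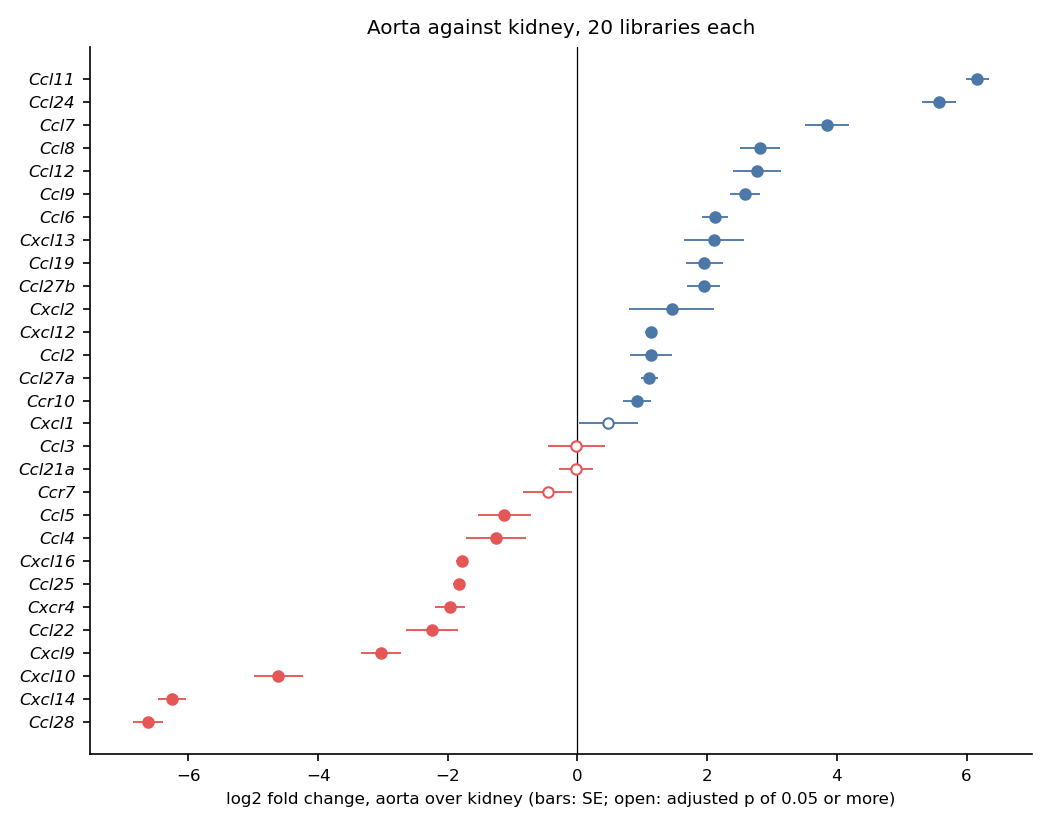
Log2 difference in level between aorta and kidney for the 29 members tested over 40 libraries, with bars for the SE and open points where the adjusted p was 0.05 or more. Ccl11 (6.17) and Ccl28 (−6.63) are at the ends.

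In kidneys, a few members differed between the diets. Of 25 members tested over both genotypes, 6 (24%) had an adjusted p under 0.05 in the edgeR quasi-likelihood test with Benjamini-Hochberg adjustment, 4 higher and 2 lower under HFD, against 16.4% of all 15943 genes. In WT alone 1 member passed, against 6.71% of all genes, and in KO alone 3 passed, against 6.34%. The 6 were Cxcl16, Ccl8, Ccl9 and Ccl6, which rose, and Ccl25 and Cxcl1, which fell. The near-identical kidneys a1 and a12 are both HFD, so the HFD side may hold fewer independent libraries than counted. Over the alternatives, among them leaving out a1 and a12, the adjusted p was at most 0.000572 for Cxcl16 and 0.00441 for Ccl25. With single libraries left out included, it was at most 0.0215 for Ccl8, 0.0209 for Ccl9 and 0.0447 for Ccl6. Cxcl1 is described below. By role, 3 of 9 inflammatory CC ligands rose and none fell, where 1228 of all 15943 genes rose and 1387 fell. Of these 3, Ccl8 passed the filter on low counts only through HFD kidneys, as described below. Cxcl16 is counted with the homeostatic CXC ligands. Over all 25 members the median log2 difference was −0.07, and 11 were higher under HFD.

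Cxcl16 (chromosome 11, 70453983 to 70459984, minus strand, GRCm38) is shed as a chemokine for CXCR6-bearing T cells. It had 34.6, 47.8, 46.0, 41.5 and 38.8 FPM in WT SFD and 56.1, 76.4, 61.8, 51.9 and 62.0 FPM in WT HFD. KO SFD kidneys had 36.6, 37.6, 45.7, 60.7 and 42.5 FPM and KO HFD kidneys 77.0, 70.3, 57.5, 66.8 and 67.5 FPM. Every WT HFD kidney was above every WT SFD kidney, while in KO a single SFD library, a9, reached into the HFD range. Over both genotypes it rose 1.5-fold (log2 0.58, SE 0.09, adjusted p 0.000143 by edgeR). The increase was 0.56 in WT (SE 0.13, adjusted p 0.0108) and 0.60 in KO (SE 0.13, adjusted p 0.0065, same test). Exons of Cxcl16 share 552 bases with Zmynd15 on the other strand, and the strand setting of the counting is not stated. Zmynd15 also rose, from 12.7 to 19 FPM (log2 0.58, SE 0.09, adjusted p 0.000189), so reads of the pair cannot be told apart where they overlap.

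The monocyte chemokine Ccl8 (chromosome 11, 82115185 to 82116799, plus strand) was low and had the largest increase of the 6. Under SFD it had 0.333, 0.258, 0.394, 0.266 and 0.331 FPM in WT and 0.101, 0.206, 0.372, 0.126 and 0.135 FPM in KO. Under HFD it had 1.01, 0.842, 1.12, 0.666 and 0.559 FPM in WT and 0.822, 2.17, 0.613, 1.14 and 0 FPM in KO. All HFD kidneys but a5, which was at 0, lay above all SFD kidneys. The increase over both genotypes was 3.58-fold (log2 1.84, SE 0.41, adjusted p 0.00351 by edgeR). No SFD kidney was above 0.394 FPM, so Ccl8 passed the filter on low counts through HFD kidneys only. Its call is therefore not independent of that filter. Over both genotypes the adjusted p was at most 0.0215 in 9 alternatives, among them the fit with no such filter. In KO alone it was 2.29 on the log2 scale (SE 0.60, adjusted p 0.0244), but that call was lost without a2 (1.77, adjusted p 0.087), a4, a6, a7, a9 or a10, and in 3 of 9 other alternatives (adjusted p up to 0.107).

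Ccl9 and Ccl6, neighbours on chromosome 11 that attract myeloid cells through CCR1, both rose. Ccl9 had 0.666, 3.31, 0.743, 1.45 and 1.20 FPM in WT SFD and 1.94, 3.60, 4.81, 2.59 and 2.44 FPM in WT HFD. In KO it had 0.912, 1.24, 2.84, 2.02 and 1.48 FPM under SFD and 3.62, 4.91, 6.17, 4.03 and 1.57 FPM under HFD. The SFD kidneys that reached into the HFD range were a17, a8 and a9. The rise over both genotypes was 2.24-fold (log2 1.16, SE 0.30, adjusted p 0.0094 by edgeR). In WT, Ccl6 averaged 2.86 ± 1.42 FPM under SFD and 5.77 ± 2.17 under HFD, and in KO 3.89 ± 1.88 and 6.68 ± 2.26 FPM (SD, n = 5), a 1.86-fold rise (log2 0.90, SE 0.26, adjusted p 0.0217).

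Ccl25 (chromosome 8, 4325210 to 4360020, plus strand) fell. It had 8.52, 7.0, 10.4, 8.33 and 9.06 FPM in WT SFD and 6.74, 5.56, 6.43, 7.14 and 7.23 FPM in WT HFD. In KO it had 7.70, 9.82, 7.59, 7.65 and 7.63 FPM under SFD and 5.62, 5.22, 6.83, 5.69 and 5.60 FPM under HFD. In KO no HFD kidney reached the lowest SFD kidney, and in WT the diets overlapped only through the SFD kidney a17. Over both genotypes it fell by 0.43 on the log2 scale (SE 0.08, adjusted p 0.00102 by edgeR), from 8.37 ± 1.09 to 6.21 ± 0.744 FPM (SD, n = 10). In KO it fell by 0.48 (SE 0.12, adjusted p 0.0166), a call lost without a7 (adjusted p 0.0588) and in 2 of 11 other alternatives (up to 0.0597), while the WT value of −0.39 had an adjusted p of 0.0524. Its exons share 204 bases with Elavl1 on the other strand, whose level was 47.6 FPM under SFD and 47.3 FPM under HFD (log2 −0.01, adjusted p 0.929).

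Cxcl1, a chemokine for neutrophils, was set by 3 libraries. It had 0.965, 52.3, 0.831, 1.41 and 0.579 FPM in WT SFD and 0.912, 0.826, 24.6, 18.9 and 1.97 FPM in KO SFD. Under HFD the WT kidneys had 2.32, 1.33, 1.73, 0.999 and 1.12 FPM and the KO kidneys 1.33, 2.07, 0.832, 1.10 and 0.854 FPM. The 3 high values belong to a17, a8 and a9, and the medians of the diets were alike, 1.19 FPM under SFD and 1.22 FPM under HFD. With all libraries Cxcl1 fell by 2.92 on the log2 scale (SE 0.87, adjusted p 0.0284 by edgeR). Without a17 the value was −1.14 (adjusted p 0.193), and without a1 and a12 it was −2.91 (adjusted p 0.0758).

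**Figure D2:**
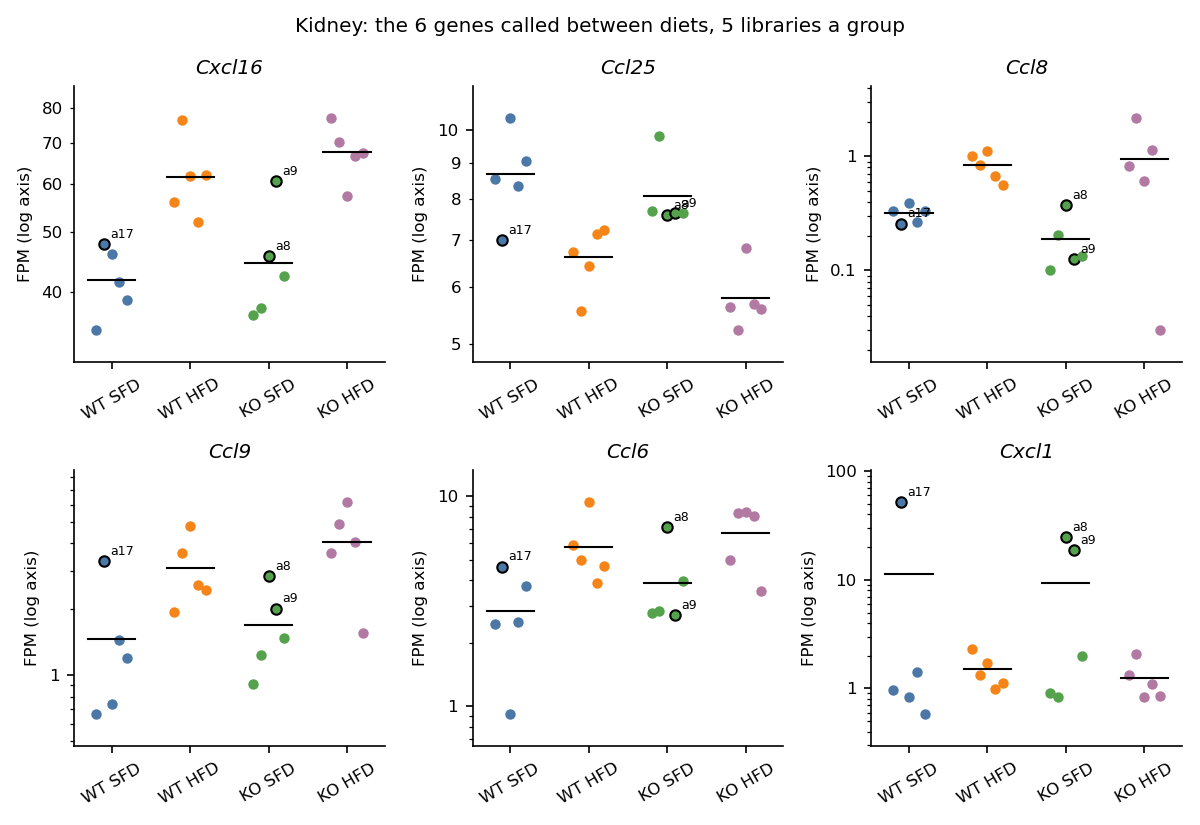
Level in FPM (log axis) in each kidney library by genotype and diet, with group means as bars and a8, a9 and a17 marked. The Ccl8 value of 0 in a5 is drawn at 0.03, and Cxcl16 is higher and Ccl25 lower under HFD in both genotypes.

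The kidneys a8, a9 and a17 carried high levels of other early chemokines too. Cxcl2, a close relative of Cxcl1, had 1.54, 9.91 and 7.39 FPM in a8, a9 and a17 and at most 0.569 FPM in the other 17 kidneys. Ccl4 had 9.66 FPM in a9 and 4.64 FPM in a17, and its partner Ccl3 had 7.65 and 5.15 FPM. Cxcl10 reached 32.6 FPM in a9, 22.0 FPM in a17 and 11.6 FPM in a8, against 2.27–9.80 FPM elsewhere. The receptor Cxcr4, whose ligand is Cxcl12, had 7.17, 7.06 and 7.09 FPM in a8, a9 and a17 while no other kidney exceeded 4.96 FPM. The neutrophil markers summed to 16.9, 18.9 and 13.3 FPM in a8, a9 and a17 and to 1.53–7.93 FPM in the rest. All 3 kidneys were from SFD mice, and what part their immediate-early signal has in the chemokine values was not tested.

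Cxcl1 and Cxcl2 lie side by side on chromosome 5. Their promoters are shown because both genes were high in the same kidneys and in aorta R-19, described further on. The stretches below are the 150 bases before each start site from RefSeq (GRCm38.p6, plus strand, chr5:90891095-90891244 and chr5:90903749-90903898), with matches to the NF-kappaB letters GGGNNTTTCC, searched on both strands, in capitals.
Cxcl1: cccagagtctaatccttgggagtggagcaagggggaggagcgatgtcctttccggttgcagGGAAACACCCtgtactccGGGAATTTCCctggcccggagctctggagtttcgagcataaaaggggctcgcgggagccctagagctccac
Cxcl2: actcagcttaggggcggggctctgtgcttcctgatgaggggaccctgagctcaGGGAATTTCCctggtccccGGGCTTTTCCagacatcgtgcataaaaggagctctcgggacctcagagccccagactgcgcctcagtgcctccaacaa
Each promoter held a pair of matches, which began 89 and 71 bases before the start of Cxcl1 and 97 and 78 bases before that of Cxcl2. Over windows from 250 bases before the start to 50 after it, 1.63% of 32851 promoters held these letters. Of the 41 members, 29 had a promoter in the RefSeq table, and 5 of these held the NF-kappaB letters, namely Ccl9, Ccl20, Cxcl1, Cxcl2 and Cxcl3. The AP-1 letters TGANTCA were found in 6 of the 29 (7.81% of all promoters) and the interferon response letters GAAANNGAAA in 3, Ccl19, Cxcl10 and Cxcl14 (3.44%).

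Without a8, a9 and a17, more members rose under HFD in kidneys. Over both genotypes 9 of 26 members (34.6%) then had an adjusted p under 0.05 (edgeR, as before), 8 higher and 1 lower, against 13.1% of all 16299 genes tested. In WT 6 passed, against 6.6% of all genes, and in KO 4 passed, against 3.57%. All 3 are SFD kidneys, so only the SFD side changed. Ccl2, the main monocyte chemokine, had 0.266, 4.17, 0.350, 0.647 and 0.414 FPM in WT SFD and 1.94, 1.39, 2.12, 1.78 and 1.56 FPM in WT HFD. In KO it had 0.557, 0.454, 1.68, 8.74 and 0.718 FPM under SFD and 1.41, 1.65, 1.79, 2.06 and 0.617 FPM under HFD. The SFD kidneys above 1 FPM were a17, a8 and a9, the kidneys left out, so the SFD level of Ccl2 falls by construction without them. All HFD kidneys but a5 were above 1 FPM. With all kidneys the log2 difference of Ccl2 was −0.05 (adjusted p 0.965), and without those 3 it was 1.72 (SE 0.24, adjusted p 0.00011).

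The other members that rose in the fit without the 3 kidneys were mostly CC ligands of chromosome 11. Ccl7 rose by 2.24 (adjusted p 0.0124), Ccl8 by 1.98 (0.0138), Ccl11 by 1.72 (0.0237), Ccl9 by 1.68 (0.000455) and Ccl6 by 1.16 (0.00634) on the log2 scale. On the kidney scale Ccl11 and Ccl7 stayed under 1 FPM in every kidney, so that few reads stand behind them. Ccl11 was too low for the test in the fit of all kidneys and entered only in this fit. No SFD kidney was above 0.266 FPM for Ccl11, and none left in this fit was above 0.266 FPM for Ccl7. Both therefore passed the filter through HFD kidneys, as Ccl8 did. The calls of Ccl7, Ccl8 and Ccl11 are not independent of that filter. Cxcl16 rose by 0.72 (adjusted p 2.82e-05) and Cxcl10 by 0.65 (adjusted p 0.0441), while Ccl25 fell by 0.49 (adjusted p 0.000998). Cxcl1 turned to 0.33 (adjusted p 0.463). The Cxcr4 value was 0.42 (adjusted p 0.0502) over both genotypes, and in WT alone Cxcr4 rose by 0.72 (adjusted p 0.0249). The 3 kidneys were the highest of all for Cxcl10 and Cxcr4, so without them the SFD level of both falls by construction. They were also the highest SFD kidneys for Ccl9, as a17 (0.859 FPM) and a9 (0.420 FPM) were for Ccl7. The SFD level of Ccl9 and Ccl7 therefore falls by construction too. With all kidneys the edgeR value over both genotypes was −0.42 for Cxcl10 (adjusted p 0.539) and 0.85 for Ccl7 (adjusted p 0.299). For Cxcr4 in WT it was 0.23 (adjusted p 0.768). Without the 3 kidneys, Ccl2, Ccl9, Cxcl16 and Ccl25 passed in each genotype. With all kidneys Ccl9 did not pass in WT (adjusted p 0.151 by edgeR) or in KO (adjusted p 0.0828).

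**Figure D3:**
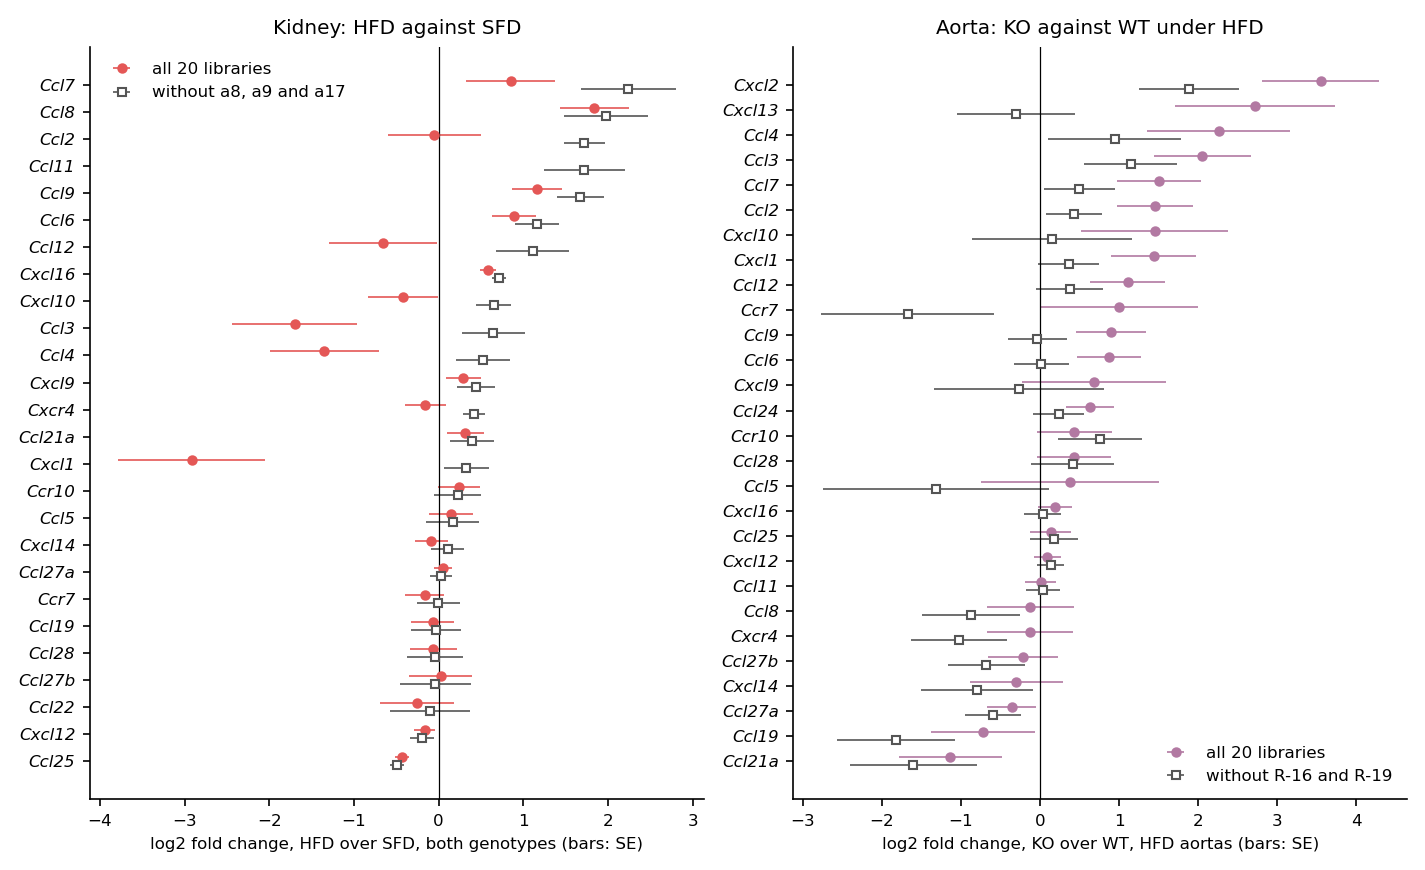
Log2 fold changes with SE of the members tested, for HFD against SFD over both genotypes in kidneys and for KO against WT under HFD in aortas. Each is shown with all 20 libraries and without a8, a9 and a17 or without R-16 and R-19. In kidneys Ccl2 moves from −0.05 to 1.72, and in aortas Cxcl2 moves from 3.55 to 1.88.

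Macrophage markers moved with diet in these kidneys. Of 10, 6 rose over both genotypes, where 16.4% of all genes passed in either direction (Mrc1, C1qb, C1qa, Lyz2, Cd68 and Adgre1) and Csf1r fell, with a median log2 difference of 0.64. Their summed level ranged over 106–179 FPM under SFD and 142–206 FPM under HFD in WT, and over 125–168 and 144–206 FPM in KO. Of 6 fibroblast markers, 3 rose (Dpt, Lum and Pi16), none of 9 lymphocyte markers tested passed, and 1 of 7 adipocyte markers (Lep) rose. The part of these cells in the chemokine values was not tested.

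Cxcl12, Ccl28 and Cxcl14, the abundant homeostatic members, did not pass for diet in kidneys. Under SFD and HFD, Cxcl12 averaged 108 ± 15.7 and 110 ± 28.6 FPM in WT and 113 ± 23.2 and 88.3 ± 21.4 FPM in KO (SD, n = 5; log2 −0.17 for HFD over both genotypes, adjusted p 0.418 by edgeR). Ccl28 averaged 73.7 ± 29.6, 51.0 ± 23.2, 45.1 ± 18.7 and 59.4 ± 24.5 FPM in the same order, with single kidneys from 21 to 115 FPM. The SD within groups was about as wide as the differences between them (adjusted p 0.903 for HFD over both genotypes). Cxcl14 averaged 25, 29.8, 32.4 and 24.2 FPM (adjusted p 0.812).

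For genotype, no chemokine member passed in kidneys. KO against WT under SFD, KO against WT under HFD, the interaction and KO against WT over both diets each had 0 of 25 members with an adjusted p under 0.05 by edgeR, against 0% of all genes in each of these comparisons, and 1 member each with an unadjusted p under 0.05, against 2.67%, 3.42%, 1.79% and 4.82% of all genes in the same order. The DESeq2 Wald test also called 0 members in each, as did the fit without a1 and a12. These near-identical libraries lie on opposite sides of KO against WT under HFD and over both diets. Ccr7, which guides dendritic and T cells to lymph nodes, had opposite values under the diets. It had 0.200, 0.687, 0.394, 0.342 and 0.579 FPM in WT SFD and 0.861, 0.413, 0.745, 0.882 and 0.808 FPM in KO SFD. Under HFD it had 0.632, 0.442, 0.923, 0.888 and 0.639 FPM in WT and 0.421, 0.310, 0.350, 0.482 and 0.237 FPM in KO. KO libraries were mostly above WT under SFD and mostly under WT under HFD, with overlap in both. The log2 difference was 0.76 under SFD (adjusted p 1), −0.93 under HFD (SE 0.32, adjusted p 0.814) and −1.69 for the interaction (SE 0.45, adjusted p 1), all from edgeR. Ccr10, the receptor for Ccl27 and Ccl28, averaged 0.569 ± 0.131 FPM in WT and 0.359 ± 0.165 in KO (SD, n = 10; log2 −0.62, SE 0.25, adjusted p 0.802). Ccl27b, a ligand of Ccr10, averaged 1.21 FPM in WT and 1.68 FPM in KO (log2 0.47, SE 0.37, adjusted p 0.802). Ccl28 gave −0.71 under SFD (SE 0.39, adjusted p 1) and Cxcl12 −0.31 under HFD (SE 0.18, adjusted p 0.814).

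In aortas, no member passed in any of 7 comparisons. With 28 members tested, 0 had an adjusted p under 0.05 by edgeR for HFD against SFD in WT (against 0.0132% of all 15122 genes), in KO (against 0%) and over both genotypes (against 0.0529%). The same held for KO against WT under SFD (against 0%), under HFD (against 0%) and over both diets (against 0.0198%), and for the interaction (against 0%). At an unadjusted p under 0.05 there were 1, 8 and 3 members for diet in WT (against 2.61% of all genes), in KO (28.6% of members, against 4.56%) and over both genotypes (against 6.7%). For genotype there were 2 under SFD (against 2.28%), 9 each under HFD and over both diets, and 1 for the interaction (against 0.84%). For diet in KO, the 8 (7 higher, 1 lower) became 3 without R-19 (10.7%, against 3.54%) and 4, all lower under HFD, without R-16 and R-19 (14.3%, against 5.02%). The DESeq2 Wald test called 1 member, Cxcl2, for KO against WT under HFD and over both diets, and 0 in the others. The near-identical R-1 and R-12 lie on opposite sides of KO against WT under SFD and over both diets. Without both, 0 members were called in each.

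Most members with an unadjusted p under 0.05 came from comparisons with KO aortas under HFD, and Cxcl2 had the largest difference. Cxcl2 (chromosome 5, 90903871 to 90905938, plus strand) had 0.535, 0.132, 0.423, 0.572 and 1.23 FPM in WT SFD and 0.856, 0.330, 0.233, 1.17 and 0.351 FPM in WT HFD. KO SFD aortas had 1.25, 0.535, 2.45, 0.596 and 0.705 FPM and KO HFD aortas 12.2, 3.17, 2.29, 16.5 and 1.04 FPM. Of the KO HFD aortas, R-16 and R-19 were highest, and R-20 lay inside the WT HFD range. For KO against WT under HFD the log2 difference was 3.55 (SE 0.74, adjusted p 0.306 by edgeR), and the DESeq2 Wald test gave an adjusted p of 0.000765. Without R-16 and R-19 it was 1.88 (adjusted p 0.605). Over both diets it was 2.23 (SE 0.51, adjusted p 0.183), and without R-12 the adjusted p was 0.0419. R-12 is near-identical to R-1 of the WT side, and with both left out Cxcl2 was not called. The comparisons of KO HFD aortas share these libraries, and HFD against SFD in KO gave 2.67 for Cxcl2 (adjusted p 0.987).

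Monocyte chemokines were high mainly in R-19. Ccl2 had 6.40, 2.58, 2.39, 2.40 and 2.05 FPM in WT HFD and 5.79, 3.65, 4.58, 25.2 and 4.44 FPM in KO HFD (log2 difference 1.46, SE 0.48, adjusted p 0.589 by edgeR). Ccl7 had 8.01, 3.35, 1.98, 3.41 and 2.17 FPM in WT HFD and 7.05, 2.83, 8.08, 31.2 and 4.99 FPM in KO HFD (1.51, SE 0.53, adjusted p 0.633). Cxcl1 had 5.09, 8.36, 2.16, 5.03 and 1.93 FPM in WT HFD and 5.14, 7.65, 6.00, 39.1 and 3.50 FPM in KO HFD (1.44, SE 0.54, adjusted p 0.669). In each of these genes R-19 was the highest aorta and the other KO HFD aortas overlapped with WT HFD. Without R-16 and R-19 the log2 differences of Ccl2, Ccl7 and Cxcl1 were 0.43, 0.50 and 0.36. Ccl3 gave 2.05 with all aortas (SE 0.61, adjusted p 0.525) and 1.15 without both, while Ccl4 gave 2.26 and 0.94, and Ccl12 1.11 and 0.37.

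R-16 was high in a different set. The B cell chemokine Cxcl13 had 0.755, 0.715, 0.117, 0.224 and 0.234 FPM in WT HFD and 12.4, 0.536, 0.167, 0.480 and 0.296 FPM in KO HFD. Its log2 difference of 2.72 (SE 1.01, adjusted p 0.658 by edgeR) became −0.30 without R-16 and R-19. Ccl6 had 78.6 FPM in R-16 and 15.4, 13.6, 42.9 and 30.9 FPM in R-17 to R-20, and Ccl9 had 60.9, 8.28, 10.8, 23.5 and 19.1 FPM in R-16 to R-20. R-16 also had 255 FPM of lymphocyte markers, where the median aorta had 27.0 FPM.

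**Figure D4:**
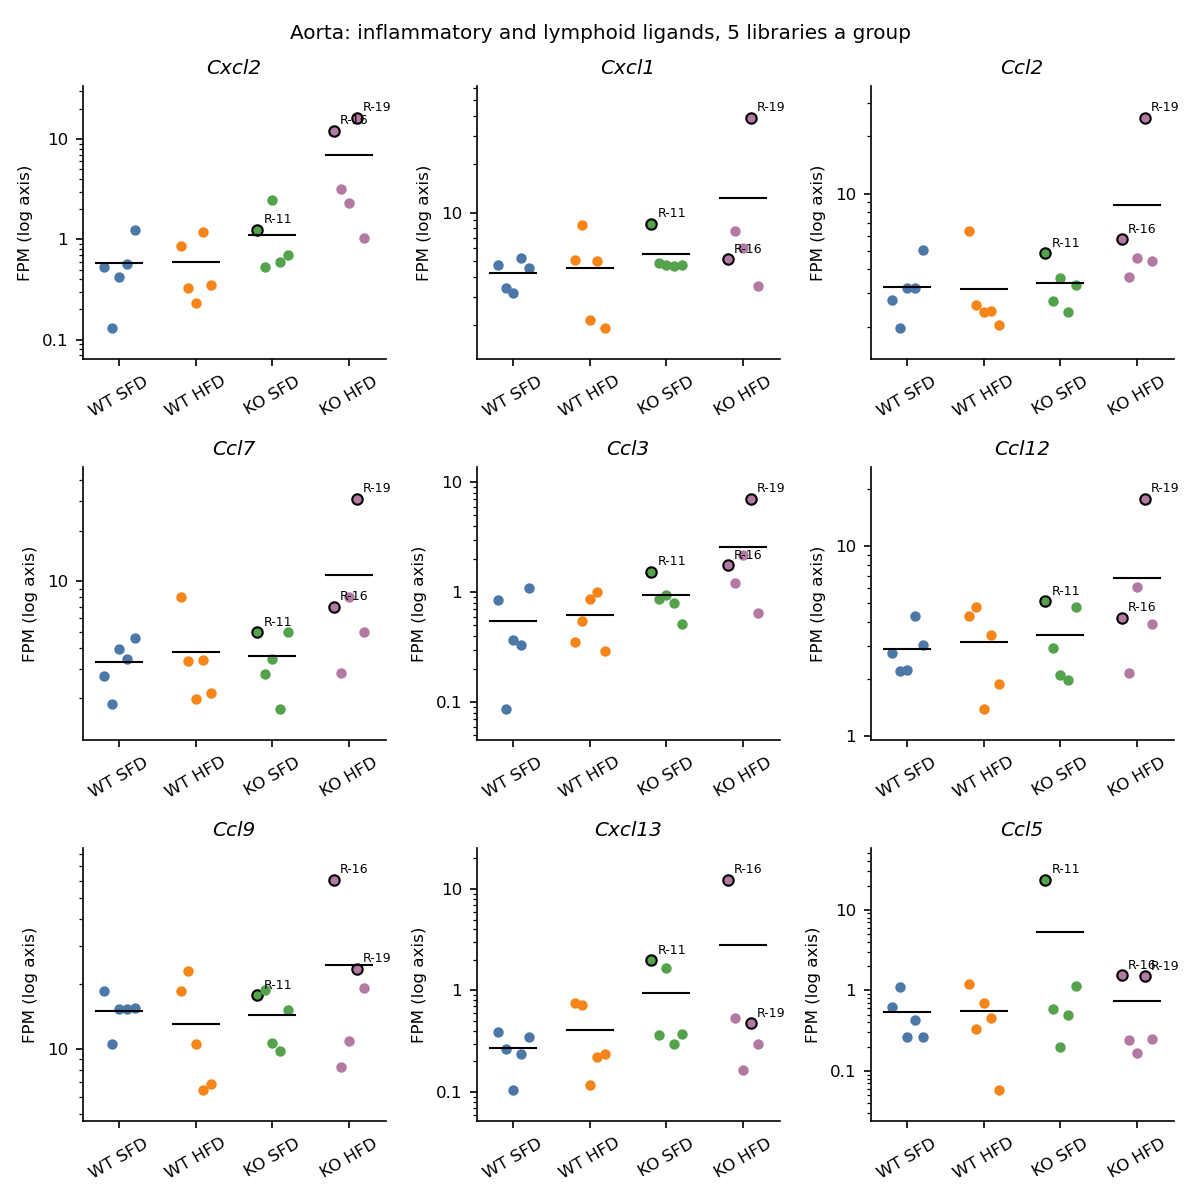
Level in FPM (log axis) in each aorta library by genotype and diet, with group means as bars and R-11, R-16 and R-19 marked. The high KO HFD values of Cxcl2 are R-16 and R-19, those of Ccl2 and Cxcl1 are R-19, and that of Cxcl13 is R-16.

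The number of members with an unadjusted p under 0.05 followed these libraries. For KO against WT under HFD it was 9 of 28 (32.1%), all higher in KO, against 5.85% of all genes, with a median log2 difference of 0.53 over members and 0.01 over all genes. Without R-19 it was 3 (10.7%, against 4.68% of all genes), and without R-16 and R-19 it was 2 (7.14%, against 6.01%), of which Cxcl2 was higher and the lymph node chemokine Ccl19 lower (log2 −1.83). Over both diets the number was 9 (32.1%, against 8.78%), then 4 without R-19 (14.3%, against 7.87%) and 2 without both (7.14%, against 8.58%). Of the marker lists under HFD, 10 of 10 macrophage, 8 of 8 lymphocyte and 11 of 11 immediate-early genes were higher in KO, against 51.7% of all genes. Their median log2 differences were 0.73, 1.90 and 1.66, none past the test. R-16 was the highest aorta for the macrophage and lymphocyte sums and R-19 for the immediate-early sum. The median library had 526, 27.1 and 4422 FPM in KO HFD and 368, 23.0 and 1840 FPM in WT HFD, in the order of the lists. The part of these marker genes in the chemokine values was not tested.

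Under SFD, the Ccl5 difference between KO and WT aortas rested on R-11. The T cell chemokine Ccl5 had 0.619, 1.10, 0.264, 0.429 and 0.263 FPM in WT SFD and 23.8, 0.591, 0.200, 0.497 and 1.13 FPM in KO SFD. The lymph node receptor Ccr7 had 3.53 FPM in R-11, 0.188–0.397 FPM in the other KO SFD aortas and 0.225 FPM or less in WT SFD. Its log2 difference was 2.82 with R-11 and 1.09 without it (SE 1.0, adjusted p 0.936 by edgeR), and that of Cxcl13 was 1.72 and 1.23 (SE 1.08, adjusted p 0.936). The Ccl5 log2 difference was 3.26 (SE 1.09, adjusted p 1 by edgeR) and 0.16 without R-11. Lymphocyte markers summed to 147 FPM in R-11.

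Diet in WT aortas gave 1 member with an unadjusted p under 0.05. Ccl8 had 2.59, 2.06, 1.11, 3.15 and 2.59 FPM in WT SFD and 8.56, 10.7, 3.73, 2.91 and 2.69 FPM in WT HFD (log2 1.31, SE 0.56, adjusted p 1 by edgeR). R-6, R-7 and R-8 were above all WT SFD aortas, and R-9 and R-10 lay inside their range. Cxcl10 averaged 0.527 FPM in WT SFD and 0.168 FPM in WT HFD (log2 −1.63, SE 0.91, adjusted p 1 by edgeR), and Ccl25 2.82 and 2.09 FPM (−0.43, SE 0.26, adjusted p 1), with overlap in both. In KO, Ccl8 had 2.79, 2.59, 1.55, 1.59 and 6.86 FPM under SFD and 8.20, 0.779, 2.41, 8.75 and 6.17 FPM under HFD. Over both genotypes the aortic value of Ccl8 was 1.04 (adjusted p 0.572), beside 1.84 in kidneys, and the difference between organs was not tested. The abundant aortic members Cxcl12 and Ccl11 passed in none of the 7 comparisons. Under SFD and HFD, Cxcl12 averaged 260 ± 54.2 and 250 ± 25.1 FPM in WT and 281 ± 49.0 and 267 ± 61.6 FPM in KO (SD, n = 5), and Ccl11 averaged from 18.4 FPM in WT SFD to 20.1 FPM in KO HFD.

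Some members share nearly all their sequence with a copy, and their counts hang on how reads with several positions were handled, which is not stated. Ccl21a and Ccl21b, ligands of CCR7, differ at 2 of 402 coding bases, T84A and C194T (the Ccl21a base first, counted from the A of the start codon). Coding bases 65 to 214 are shown to place both differences (capitals), as read from GRCm38, for Ccl21a on chromosome 4, 42772860 to 42773993, minus strand, and for Ccl21b on chromosome 4, 42255767 to 42256432, plus strand.
Ccl21a: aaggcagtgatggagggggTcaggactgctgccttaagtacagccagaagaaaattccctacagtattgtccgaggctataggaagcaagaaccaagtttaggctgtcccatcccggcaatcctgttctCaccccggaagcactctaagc
Ccl21b: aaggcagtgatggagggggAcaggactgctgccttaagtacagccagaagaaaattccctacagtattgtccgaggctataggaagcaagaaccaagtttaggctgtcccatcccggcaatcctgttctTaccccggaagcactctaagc
Ccl27a and Ccl27b differ at 3 of 425 bases, and Ccl19 differs from its pseudogene copies at 4 of 327 and 0 of 324. The near-identical libraries a1 and a12 split these copies differently. Ccl21a had 257 counts in a1 and 174 in a12 while Ccl21b had 114 and 191, and the sums were 371 and 365. In aortas Ccl21b had 118 counts in R-1 and 123 in R-12 and at most 0.437 FPM in any other library. Values of Ccl19, Ccl21a, Ccl21b, Ccl27a and Ccl27b are therefore uncertain as to which copy they stand for.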

How the data were processed

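The deposited files hold whole-number counts per gene, unnormalised, for 20 aortas and 20 kidneys. The authors sequenced poly(A) RNA as paired reads and counted them per gene on mm10 with featureCounts. Mapping is given as HISAT2 2.1.0 in the submitters' processing notes and as TopHat2 in the methods. The settings for strand and for reads with several positions are not given in the sources used here, and this bears on overlapping genes and near-identical copies.

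Groups followed the labels of genotype, diet and organ. The 20 libraries of an organ entered 1 robust quasi-likelihood fit (edgeR 4.0.16 under R 4.3.3) after TMM normalisation and the filterByExpr filter. That filter was passed by 28 of 40 members in aortas and 25 of 40 in kidneys, among 15122 and 15943 genes. P-values were adjusted over all genes tested by Benjamini-Hochberg, and 0.05 was the threshold. SE is the absolute log2 fold change divided by the square root of F. The organs were compared in 1 fit of 40 libraries. P-values measure the spread between 5 libraries a group. BCV was 29.0% in aortas and 22.3% in kidneys. Calls were tested on simulated data. Members and lists were chosen with earlier results of these data known. The genes given with values were members past the threshold in a comparison, the 8 highest members of each organ, the 6 largest differences each way between organs, and the members with the smallest p where fewer than 3 passed. Others, such as Ccl4, Ccl11 and Ccl12, were named after their values were seen. Alternatives were DESeq2 1.42.0 size factors and its Wald test, other filters, a stricter call, fits of the compared groups only, summed paralogs, and left-out libraries. Leaving out a1, a12, a8, a9 and a17 together, R-19, or R-16 and R-19 was chosen after seeing the data. Kidneys a8, a9 and a17, left out alone, were also picked as standing apart in these same data.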

Additional observations from a re-analysis of the deposited data

Results flagged for a closer look

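Within groups of 5 libraries, a single library stood beyond Dixon's limit in 19 of 100 tests of members and groups in aortas (19%). In kidneys this was so in 9 of 88 (10.2%). The limit gives about 1 in 20 for normally distributed values only. FPM entered without log transform, every flagged value was the highest of its group, and some members were named by their p-values. The members share libraries, so the tests are not independent. These shares therefore do not measure a departure from chance.

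In KO HFD aortas, R-19 was far above the others for Cxcl1 (39.1 FPM), Ccl7 (31.2), Ccl2 (25.2), Ccl12 (17.8), Ccl3 (7.09), Cxcl10 (1.60) and Cxcl9 (1.28). R-16 was far above them for Ccl9 (60.9 FPM), Cxcl13 (12.4) and Ccr7 (3.28). In KO SFD aortas, R-11 stood apart for Ccl5 (23.8 FPM against 0.200–1.13 in the other 4), Cxcl1 (8.55), Cxcr4 (3.58) and Ccr7 (3.53), and R-15 for Ccl8 (6.86). In WT HFD aortas, R-6 stood apart for Ccl11 (27.4 FPM), Ccl7 (8.01) and Ccl2 (6.40), and R-10 for Cxcl12 (293 FPM against 230–247).

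In WT SFD kidneys, a17 stood apart for Cxcl1 (52.3 FPM), Cxcl10 (22.0), Cxcr4 (7.09) and Ccl12 (1.42). In KO SFD kidneys, a9 stood apart for Ccl12 (3.74 FPM), a8 for Ccl6 (7.12) and a7 for Ccl25 (9.82). In WT HFD kidneys a11 stood apart for Cxcl12 (161 FPM), and in KO HFD kidneys a2 for Cxcr4 (4.19).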

How the results depend on the processing

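In kidneys, a stricter rule also asked for a fold over 1.5 and a group mean over 5 FPM. Under it the 6 members called for HFD over both genotypes became 2, Ccl6 and Cxcl1, and Cxcl16 was lost. They became 6 to 8 when single libraries were left out. The 3 called in KO became 1 under that stricter rule and 2 to 6 with single libraries left out (6 without a17, 5 without a5 or a16). The 1 called in WT became 0 under the stricter rule, 2 with DESeq2 size factors, the DESeq2 Wald test, protein-coding genes only or only the groups compared, 6 without a8, a9 and a17, 5 without these and a1 and a12, and 1 to 3 with single libraries left out (3 without a17). In aortas, the DESeq2 Wald test called 1 member (Cxcl2) for KO against WT under HFD and over both diets, and leaving out single libraries gave 0 to 1 over both diets (1 without R-12). Reversed values, on the log2 scale, were those of Cxcl1 for HFD in kidneys, which turned to 0.33 over both genotypes, 0.65 in WT and 0.0040 in KO without a8, a9 and a17, to 0.33 and 0.69 over both genotypes and in WT when a1 and a12 were left out too, and to 0.65 in WT without a17, and that of Ccl5 for the interaction in aortas, 0.22 without R-11. With single libraries left out, the range was −3.20 to 0.65 for Cxcl1 in WT and −3.33 to 0.22 for Ccl5. Of the other values for single genes, 618 kept direction and side of the threshold, 15 lost the call and 14 gained one, and with single libraries left out 1477 kept both, 12 lost the call and 9 gained one. Between organs, 18 to 28 members were called. Ccl8 in kidneys had no value with a mean of at least 1 FPM required. No paired analysis was possible because the labels give the compared groups no shared replicate numbers. Members under 1 FPM rest on few reads, intervals were not set on them, and their differences were not detectable at this depth unless large.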

Other observations

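Relatives outside the rule showed further levels in these organs. Pf4, a platelet chemokine whose symbol lies outside the rule, averaged 0.534 ± 0.182 FPM in SFD kidneys and 0.885 ± 0.291 FPM in HFD kidneys (SD, n = 10), and rose by 0.72 on the log2 scale over both genotypes (SE 0.23, adjusted p 0.0385, edgeR quasi-likelihood test with Benjamini-Hochberg adjustment). Cxcl11, an interferon-induced ligand that the tables class as a polymorphic pseudogene, ran from 0.578 to 1.51 FPM in SFD kidneys and from 0.200 to 0.770 FPM in HFD kidneys, with overlap between the diets. Ackr3, the scavenging receptor for Cxcl12, averaged 113 FPM in SFD aortas and 96.6 FPM in HFD aortas, and 53.1 and 59.5 FPM in SFD and HFD kidneys (adjusted p 0.427 for diet in kidneys). Cx3cl1, the membrane-bound ligand of monocytes, averaged 74.1 FPM in SFD and 68.5 FPM in HFD kidneys (adjusted p 0.503) and 23.4 FPM in aortas under both diets.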
